A study of Homo sapiens with 10 samples.

Results

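Kinesins are motor proteins that hydrolyse ATP to move along microtubules or to take their ends apart. Mitotic kinesins build the spindle, align and separate chromosomes and complete cytokinesis, and their genes are known to be transcribed mainly before and during cell division. Transport kinesins carry vesicles, organelles and ciliary components in dividing and in non-dividing cells. The genes described here are all those that the array annotation names KIF followed by a digit, or KIFC1, KIFC2 or KIFC3, on probe sets with a single gene symbol. They number 41 of the 19775 genes named by a single symbol, and they are measured by 85 of the 54675 probe sets on the array. The same letters also matched 6 probe sets of antisense RNAs, which encode no motor and were left out. By known function, 13 of the genes were taken as mitotic and 15 as transport kinesins. This division was made with earlier results of these data known. The remaining 13 act in cilia, on microtubule ends or in other ways, and are called the other kinesins below.

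The measurements come from IMR90 cells, a human fetal lung fibroblast line, hybridised to 10 oligonucleotide arrays. Senescent cells at 90 population doublings gave 5 arrays, and proliferating cells at 28 population doublings gave 5. Senescent cells had been passaged until they ceased to grow and were held in dishes for 2 weeks, and both states were cultured at 3% oxygen with 10% serum. The question is what changes in cells that have stopped dividing, and growth state and time in culture cannot be told apart. Nothing in the labels ties an array to its own culture, and every p-value below therefore rests on array-to-array spread, possibly of technical origin. Values are the deposited log2 values, on which a difference of 1 is 2-fold, and the number of arrays limits the precision.

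Array medians lay between 3.05 and 3.12. All 10 fibroblast markers lay above the 60th percentile of every array. Of 17 markers of epithelial, endothelial and leukocyte cells, 12 were not tested because of low signal, and TEK (10.52 and 9.90), EPCAM (4.18 and 6.49) and KRT19 (4.15 and 5.41, means in senescent and in proliferating cells) stood above the rest. The part of such cells in the results was not tested, and in cell populations fewer cells with a transcript and less transcript per cell cannot be told apart. The signal at the 3' end of ACTB relative to its 5' end, a sign of RNA integrity, was 2.32 ± 0.10 in senescent and 2.07 ± 0.14 in proliferating samples (SD, n = 5 each, two-sided exact permutation p = 0.0079, the smallest this design allows). The same measure for GAPDH was 0.12 ± 0.09 in senescent and -0.03 ± 0.18 in proliferating samples (SD, n = 5 each, two-sided exact permutation p = 0.13). Calls that the ACTB control moves, when it enters the fit as a covariate, are given beside the genes. Its values separate the states completely, so RNA integrity and growth state cannot be told apart in that fit.

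Promoter sequence was examined first, because genes expressed in mitosis often carry a cell cycle genes homology region (CHR). This hexamer near the transcription start is known to be bound by the DREAM and MMB complexes, which repress and activate such genes. RefSeq promoter windows of GRCh38.p14, from 250 bases before to 50 bases after the transcription start that the promoter table uses, were matched for 33 of the 41 kinesins. This start is the outer end of the RefSeq gene span in 24 of them and lies inside the span in the other 9, by 362 bases in KIFC1, 217 in KIF22, 1046 in KIF1B and 1184 in KIF1A, so that "start" below means the start in this table. The others are KIF6, KIF7, KIF9, KIF12 and KIF24. The letters TTTGAA and TTTAAA were searched on both strands, where TTTGAA reads TTCAAA on the opposite strand and TTTAAA reads the same. They occurred in 11 of 13 mitotic windows (84.6%), in 2 of 11 transport windows (18.2%) and in 0 of 9 windows of the other kinesins, against 24% of the 35116 windows in the table. Within 50 bases of the start, they occurred in 10 mitotic windows (76.9%) and in none of the 20 transport and other windows, against 7.62% of the table. Among windows at the outer end of the span, 9 of 11 mitotic windows held a hexamer that near. A match describes these letters in this window and is no evidence of binding.

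The stretches around the match nearest to the start are shown for the 11 mitotic kinesins that hold one, on the strand of the gene. Only that match is in capitals, with 20 bases on each side. In KIF20B a second TTTGAA follows directly and is left in lower case.
KIF20A: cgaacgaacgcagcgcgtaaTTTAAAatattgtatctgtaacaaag
KIF15: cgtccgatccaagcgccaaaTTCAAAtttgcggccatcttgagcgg
KIF2C: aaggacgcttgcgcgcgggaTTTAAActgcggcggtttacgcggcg
KIF14: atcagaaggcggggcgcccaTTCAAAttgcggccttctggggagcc
KIF4A: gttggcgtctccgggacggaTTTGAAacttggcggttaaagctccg
KIF18B: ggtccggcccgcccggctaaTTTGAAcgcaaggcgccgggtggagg
KIF11: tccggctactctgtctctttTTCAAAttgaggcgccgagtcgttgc
KIF20B: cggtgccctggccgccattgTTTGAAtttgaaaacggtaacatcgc
KIFC1: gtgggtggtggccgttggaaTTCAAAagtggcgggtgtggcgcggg
KIF18A: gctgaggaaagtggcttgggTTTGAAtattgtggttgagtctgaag
KIF23: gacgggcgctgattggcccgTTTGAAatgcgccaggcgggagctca

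These stretches lie, in GRCh38.p14, at chr5:138179051-138179096 (plus strand, KIF20A), chr3:44761739-44761784 (plus, KIF15), chr1:44739814-44739859 (plus, KIF2C) and chr1:200620725-200620770 (minus, KIF14). Those of KIF4A, KIF18B and KIF11 lie at chrX:70290050-70290095 (plus), chr17:44947746-44947791 (minus) and chr10:92593082-92593127 (plus). Those of KIF20B, KIFC1, KIF18A and KIF23 lie at chr10:89701594-89701639 (plus), chr6:33391807-33391852 (plus), chr11:28108141-28108186 (minus) and chr15:69414274-69414319 (plus). The hexamer began 41 bases before the start in KIF20A and 55 bases before it in KIF23, whereas in KIF14 and KIF18B it began 1 and 2 bases after it.

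**Figure D1:**
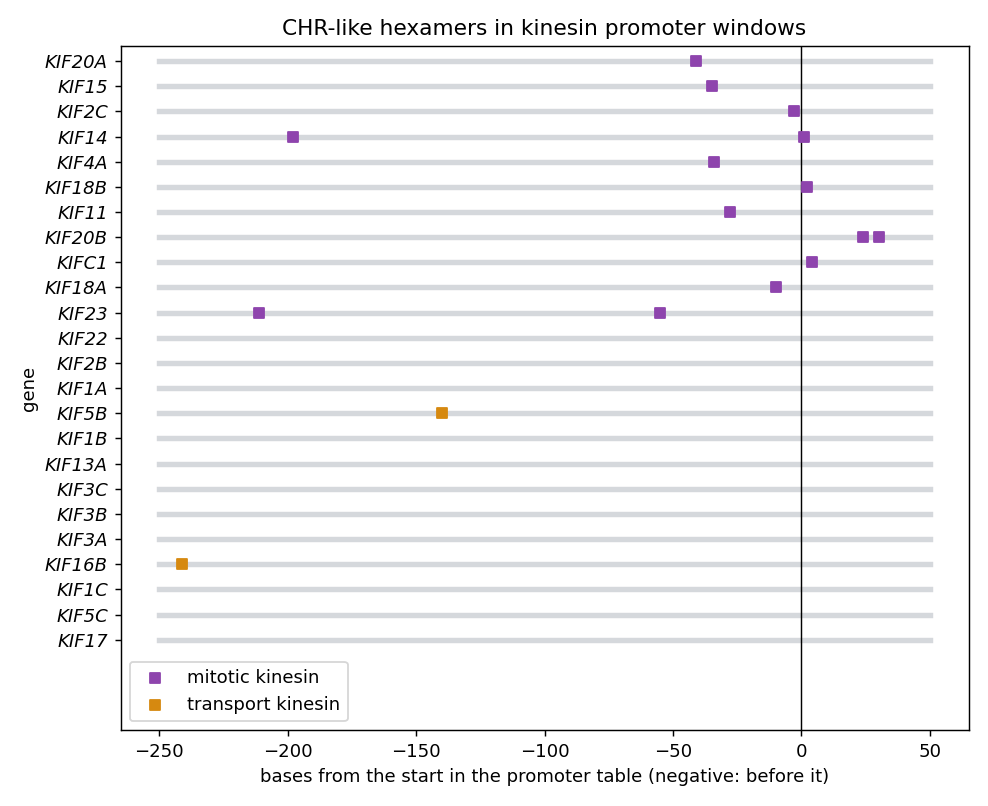
Positions of the hexamers TTTGAA and TTTAAA, on either strand, in the promoter windows of mitotic (purple) and transport (orange) kinesins, in bases from the transcription start that the promoter table uses. Each grey line is 1 window, and 10 of 13 mitotic windows hold a hexamer within 50 bases of the start, whereas the 2 matches in transport windows lie further upstream.

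A pair of whole windows shows the contrast between a spindle motor gene and the main cargo motor gene. The window of KIF20A is at chr5:138178862-138179161 (plus strand) and that of KIF5B at chr10:32056376-32056675 (minus strand), with the hexamers in capitals.
KIF20A: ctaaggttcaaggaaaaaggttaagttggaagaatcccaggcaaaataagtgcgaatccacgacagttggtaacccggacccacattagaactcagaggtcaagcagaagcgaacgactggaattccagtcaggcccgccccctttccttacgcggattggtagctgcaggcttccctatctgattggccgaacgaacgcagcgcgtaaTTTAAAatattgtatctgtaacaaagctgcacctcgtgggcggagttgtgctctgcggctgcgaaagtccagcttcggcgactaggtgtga
KIF5B: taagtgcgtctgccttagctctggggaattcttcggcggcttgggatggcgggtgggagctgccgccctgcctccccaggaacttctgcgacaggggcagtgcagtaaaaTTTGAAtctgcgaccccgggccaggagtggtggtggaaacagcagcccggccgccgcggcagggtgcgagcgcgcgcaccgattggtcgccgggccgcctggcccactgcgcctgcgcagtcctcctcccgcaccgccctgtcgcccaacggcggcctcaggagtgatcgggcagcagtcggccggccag

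The CCAAT box, which the factor NF-Y is known to bind, was found on either strand in 9 of 13 mitotic windows (69.2%) and in 4 of 11 transport windows (36.4%), against 34.6% of the table. The KIF20A window holds 2 such boxes and the KIF5B window 1. Letters of E2F sites (TTGGCGC with the variants TTCCCGC and also TTCGCGC and further TTGCCGC, on both strands) were found in 30.8% of mitotic and 36.4% of transport windows, against 13% of the table. KIF22 and KIF2B held no CHR, CCAAT or E2F letters in the windows given. KIF22 has the smallest difference between the states among the tested mitotic kinesins below on 1 probe set (-0.44), whereas its other probe set was at -4.26. KIF2B is known to act at kinetochores and had low signal here. The window of KIF22 lies mostly inside the gene span, and the sequence before the outer end of its span was not searched.

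A probe set was tested if it exceeded the 40th percentile of its array on at least 5 arrays, and the tested probe set with the highest mean stood for its gene. A gene was called, and is said to have risen or fallen, at an adjusted p under 0.05 by limma with Benjamini-Hochberg adjustment over all genes tested. Of the 41 kinesin genes 32 were tested, of which 15 fell, 10 rose and 7 did not pass, where 61.3% of the 12909 genes tested were called in either direction. Mitotic kinesins were lower in senescent cells. Of the 13 mitotic kinesins 12 were tested and all 12 fell, by a median log2 difference of -4.98, where 30.3% of all genes tested were called lower and the median difference was 0.04. Of these 12, 11 fell by more than 4-fold and 8 by more than 16-fold, as did 4.25% and 1.13% of all genes tested. KIF15 was tested only because it passed the minimum on proliferating arrays. Without any minimum, 12 of all 13 mitotic kinesins fell, against 19.1% of 19775 genes. The 5 senescent values lay below the 5 proliferating values for each of the 12, where 25.1% of genes tested lay apart in this direction and 51.8% in either.

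Mitotic kinesins of every kind were among the genes with the largest falls, 7 of them within the first 100 and 11 within the first 500. Those of cytokinesis and the central spindle ranked from 8 (KIF20A) to 199 (KIF23). KIF20A, which brings the chromosomal passenger complex to the central spindle, had values of 4.92, 5.54, 5.39, 5.67 and 5.02 on senescent arrays, against 11.70, 11.53, 11.59, 11.66 and 11.98 on proliferating arrays. No senescent value came near the lowest proliferating one, and the fall was the 8th largest of 12909 genes (-6.38, SE 0.15, 83.4-fold, limma's adjusted p = 2.7e-10). KIF14, a midbody motor, averaged 4.50 ± 0.25 in senescent and 9.90 ± 0.21 in proliferating cells (SD, n = 5 each), 42.1-fold lower. It exceeded the 60th percentile on only 1 senescent array, so the size of this fall is sensitive to the background level. The second KIF14 probe set, below that percentile on every senescent array, fell by 4.90. KIF4A, which binds PRC1 and chromosomes, had 6.45, 6.37, 6.60, 6.21 and 5.33 in senescent cells, against 11.33, 11.11, 11.38, 11.42 and 11.61 in proliferating cells. Senescent 5 was the lowest of these arrays, and KIF4A fell 36.1-fold (limma's adjusted p = 1.4e-08).

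KIF23, the motor subunit of centralspindlin, fell less than KIF20A, by 3.56 (SE 0.09). Its senescent values of 6.11, 6.05, 5.97, 6.12 and 6.13 varied little, and proliferating 2 was the lowest among 9.71, 9.29, 9.72, 9.70 and 9.79. KIF20B, which acts late in cytokinesis, fell by 4.03, with 4.55, 5.42, 5.45, 6.03 and 5.70 in senescent and 9.43, 9.44, 9.56, 9.36 and 9.50 in proliferating cells. Its senescent values were spread more widely than its proliferating values, without overlap. The mean over probe sets was -2.15 for KIF23 and -2.01 for KIF20B, and the KIF23 probe set that is not shared between transcripts was at -0.73. That probe set lay below the 60th percentile of every array, with means of 2.70 in senescent and 3.43 in proliferating cells.

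**Figure D2:**
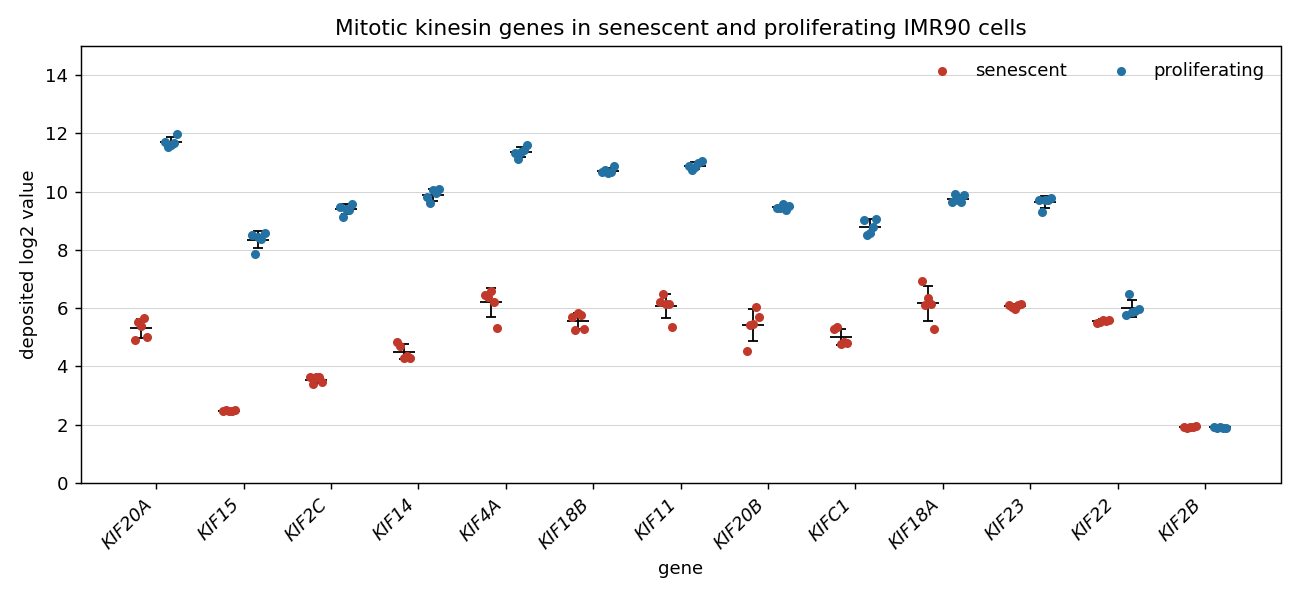
Deposited log2 values of the 13 mitotic kinesin genes on each array, senescent (red, left of each pair) and proliferating (blue), with mean and SD (black, n = 5 each). The groups are apart for 12 genes, KIF22 shows the smallest gap and KIF2B lies near 1.9 in both.

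Motors that form the bipolar spindle also fell. KIF11, the kinesin-5 that slides spindle microtubules apart, had 6.23, 6.50, 6.14, 6.15 and 5.37 in senescent cells, against 10.86, 10.73, 10.83, 10.97 and 11.06 in proliferating cells. Senescent 5 was again the lowest array, and the fall was 28.1-fold (-4.81, SE 0.18). KIF15, the kinesin-12 that can share this work with KIF11, had 2.48, 2.51, 2.47, 2.47 and 2.50 in senescent cells, against 8.51, 7.87, 8.44, 8.37 and 8.58 in proliferating cells. Every senescent value of KIF15 lay below the 40th percentile of its array, so the size of its fall (-5.87, SE 0.12) is set by the background level. KIFC1, the minus-end kinesin-14 that focuses spindle poles, averaged 5.01 ± 0.29 in senescent and 8.79 ± 0.25 in proliferating cells (SD, n = 5 each), 13.7-fold lower.

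The tested mitotic kinesins that act on microtubule ends and on chromosomes fell by differing amounts. KIF2C, the centromeric depolymerase, had 3.63, 3.38, 3.63, 3.62 and 3.45 in senescent cells, against 9.47, 9.14, 9.42, 9.37 and 9.59 in proliferating cells, a fall of 5.85 (SE 0.09). KIF2C lay below the 60th percentile of each senescent array, which is called low signal here. KIF18B, which limits astral microtubules, and KIF18A, which dampens chromosome movements, fell by 5.15 (SE 0.12) and 3.60 (SE 0.25). KIF18A varied most among the senescent arrays, with 6.94, 6.10, 6.36, 6.13 and 5.27, against 9.66, 9.90, 9.71, 9.66 and 9.88 in proliferating cells.

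KIF22, a chromosome arm motor, depended on which of its probe sets was read. The probe set that stood for the gene had 5.47, 5.53, 5.61, 5.57 and 5.61 in senescent cells, against 5.76, 6.48, 5.86, 5.89 and 5.97 in proliferating cells. Proliferating 2 was the highest array, and the difference was -0.44 (SE 0.12, limma's adjusted p = 0.0094), which lost its call with the ACTB control as a covariate (-0.12, adjusted p = 0.51) and with centring on housekeeping genes (-0.20, adjusted p = 0.10). The other KIF22 probe set had 4.27, 4.01, 3.20, 3.30 and 3.37 in senescent cells, against 8.12, 7.93, 7.55, 7.61 and 8.23 in proliferating cells, a fall of 4.26 (SE 0.23, limma's adjusted p = 1.4e-07 over 32732 probe sets). Their means over all arrays were close, so that leaving out any senescent array moved the choice to the second. KIF2B, the remaining kinetochore depolymerase, was not tested, with means of 1.92 in senescent and 1.91 in proliferating cells.

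Transport kinesins did not follow the mitotic ones. Of 15 genes 12 were tested, of which 9 rose, none fell and 3 did not pass, with a median difference of 0.96, where 31% of all genes tested rose. Without a minimum signal 9 of all 15 rose, against 20.1% of genes. Of the 12, 8 had senescent values that all lay above the proliferating values, against 26.7% of genes tested. With the ACTB control as a covariate 7 rose, and with arrays centred on housekeeping genes 11 rose, while that centring moved the median of all genes by 0.23. Of the 14 housekeeping genes used, 7 were themselves called lower and 1 higher in senescent cells.

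KIF5A, a heavy chain of conventional kinesin known mainly from neurons, had the largest increase among the tested kinesins. Its values were 5.98, 5.73, 6.11, 5.97 and 5.98 on senescent arrays, against 3.11, 3.02, 3.14, 2.36 and 3.28 on proliferating arrays. All proliferating values had low signal, and the difference of 2.97 (SE 0.16, 7.83-fold, limma's adjusted p = 7.7e-08) is therefore sensitive to the background correction. A second KIF5A probe set rose by 3.15 (SE 0.21), and the third had low signal and was not tested. KIF5B, the heavy chain that most cell types use, had 13.11, 13.06, 13.14, 13.11 and 13.02 in senescent cells, against 13.05, 13.28, 13.02, 13.23 and 13.16 in proliferating cells. The KIF5B groups overlapped, with a difference of -0.06 (95% interval -0.19 to 0.07, limma's adjusted p = 0.36), and none of its 3 probe sets passed. KIF5B rose by 0.17 with housekeeping centring (adjusted p = 0.012). KIF5C, the third heavy chain, was not tested, with means of 2.31 in senescent and 2.37 in proliferating cells.

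**Figure D3:**
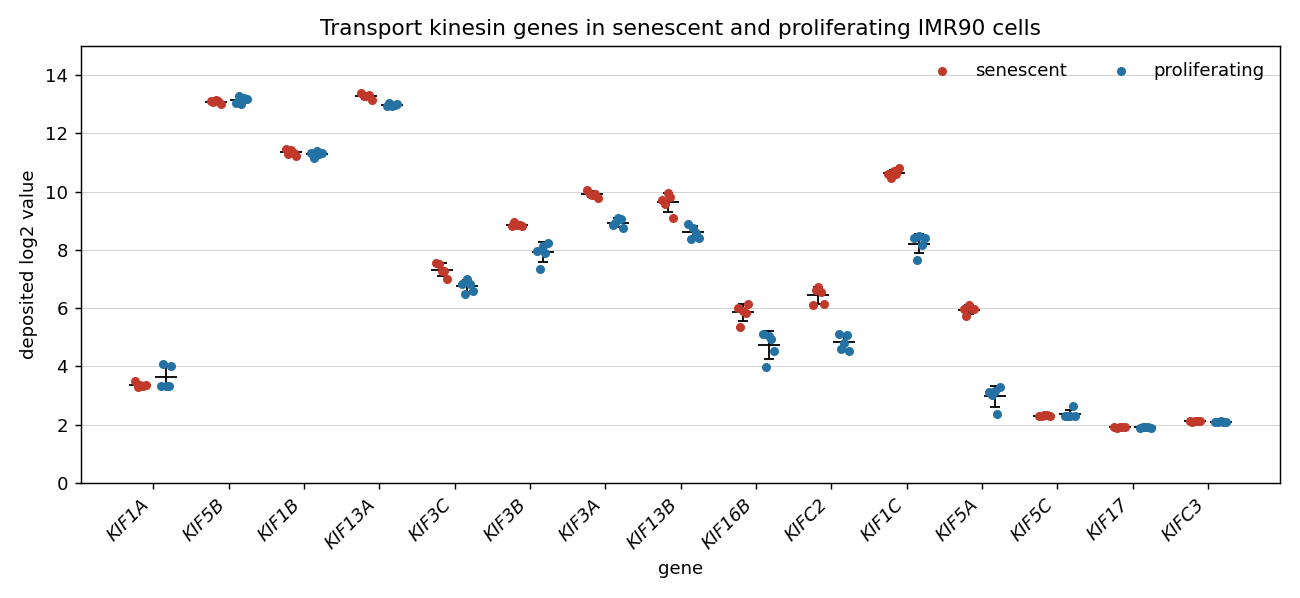
Deposited log2 values of the 15 transport kinesin genes on each array, senescent (red, left of each pair) and proliferating (blue), with mean and SD (black, n = 5 each). KIF5A and KIF1C show the largest gaps, KIF5B and KIF1B overlap, and KIF5C, KIF17 and KIFC3 lie near the low end in both.

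The motor subunits of heterotrimeric kinesin-2, which moves ciliary and membrane cargo, rose together. KIF3A had 10.05, 9.93, 9.89, 9.91 and 9.78 in senescent cells, against 8.85, 8.91, 9.11, 9.07 and 8.74 in proliferating cells. KIF3B had 8.83, 8.95, 8.87, 8.85 and 8.82 in senescent cells, against 7.98, 7.35, 8.12, 7.89 and 8.25 in proliferating cells. Neither pair of groups overlapped, and the differences were 0.98 (SE 0.08) and 0.95 (SE 0.14). KIF3C, an alternative partner of KIF3A in mouse, rose by 0.57 (SE 0.13) with overlapping groups and lost its call once the ACTB control entered the fit (0.30, adjusted p = 0.16). Both probe sets of each of these 3 genes rose. KIFAP3, their cargo-binding subunit, chosen by name after its value was seen, rose by 0.27 (SE 0.09). KIF17, a kinesin-2 of dendrites in mouse, was not tested, at 1.91 in both states.

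Among the kinesin-3 motors of vesicles, KIF1C rose most. Its values were 10.62, 10.47, 10.70, 10.61 and 10.79 in senescent cells, against 8.40, 7.65, 8.47, 8.16 and 8.39 in proliferating cells, a difference of 2.42 (SE 0.15, 5.36-fold). Its other probe sets rose by 1.07 and 1.49, so that KIF1C was higher on all 3 while the size of the rise depended on the probe set. Leaving out any senescent array moved the choice to the probe set with the smaller rise, with differences of 1.02 to 1.13. KIF1B, a carrier of mitochondria and synaptic vesicle precursors, differed by 0.06 (95% interval -0.08 to 0.19), and of its 4 probe sets 1 rose, by 0.82 (SE 0.09). The mean of the 4 rose by 0.23 (adjusted p = 0.00080). KIF1A, the axonal kinesin-3, had low signal in both states and differed by -0.26 (95% interval -0.63 to 0.12), with proliferating 2 and 5 apart at 4.10 and 4.03.

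KIF13B, which carries phosphoinositide cargo, rose 2.03-fold, with 9.63 ± 0.32 in senescent and 8.61 ± 0.22 in proliferating cells (SD, n = 5 each), and by 0.63 on the log2 scale in the ACTB fit. KIF13A, a motor of recycling endosomes, rose by 0.30 (SE 0.05), or 0.53 with housekeeping centring, and of its 5 tested probe sets 2 rose and 3 did not pass. KIF16B, a motor of early endosomes, rose by 1.13 (SE 0.23), with 6.01, 5.37, 5.92, 5.84 and 6.15 in senescent and 5.12, 3.99, 5.06, 4.95 and 4.52 in proliferating cells. Its groups did not overlap, but its call was lost in the ACTB fit (0.53, adjusted p = 0.11), and a second probe set did not pass (0.59, adjusted p = 0.12). KIFC2, known from mouse neurons, rose 3.06-fold (1.61, SE 0.16), on a probe set named as shared between similar transcripts. That probe set exceeded the 60th percentile on 3 of the 5 proliferating arrays. The other KIFC2 probe set was not tested, with means of 2.53 in senescent and 2.30 in proliferating cells. KIFC3, a minus-end motor of the Golgi and cell junctions, was not tested, with means of 2.12 in senescent and 2.10 in proliferating cells.

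**Figure D4:**
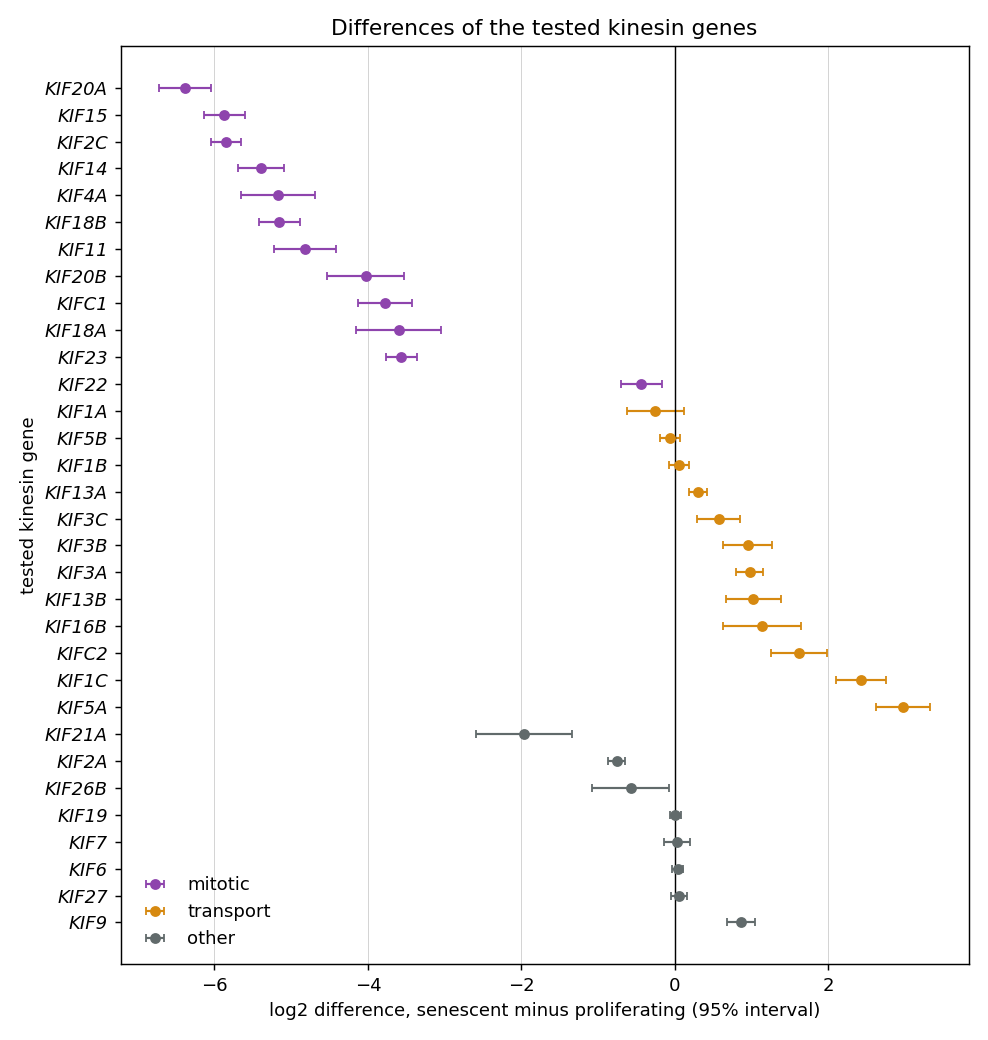
Log2 differences, senescent minus proliferating, of the 32 tested kinesin genes with 95% intervals from the limma fit (n = 5 each). Mitotic kinesins (purple) lie below 0, from -6.38 to -0.44, transport kinesins (orange) lie between -0.26 and 2.97, and the other kinesins (grey) lie between -1.97 and 0.86.

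The other kinesins showed no common direction. Of 13 genes 8 were tested, of which 3 fell, 1 rose and 4 did not pass, with a median difference of 0.02. The called share was 50%, against 61.3% of all genes tested, and the share that fell was 37.5%, against 30.3%. KIF21A, which restrains microtubule growth, fell by 1.97 (SE 0.28), with 3.77, 3.26, 3.40, 3.30 and 3.35 in senescent and 5.65, 5.51, 5.40, 4.28 and 6.07 in proliferating cells. Its senescent signal was low, and proliferating 4 lay nearest to it. The mean over its probe sets was -1.22. KIF2A, a paralogue of KIF2C that works at spindle poles and also in interphase cells, fell by 0.76 (SE 0.05), from both of its probe sets, with 9.50 ± 0.07 in senescent and 10.26 ± 0.06 in proliferating cells (SD, n = 5 each). That is 1.69-fold lower, against 57.8-fold for KIF2C. KIF26B, an atypical kinesin, had low signal in both states, and its fall of 0.58 (limma's adjusted p = 0.047) lost its call under 16 of 20 alternatives.

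KIF9, known from motile cilia and sperm in mouse, rose by 0.86 (SE 0.08), with 9.38, 9.34, 9.57, 9.59 and 9.50 in senescent cells, against 8.85, 8.46, 8.52, 8.57 and 8.68 in proliferating cells. The groups did not overlap, and 3 of its 4 probe sets rose, all of them named as shared between similar transcripts, so that KIF9 had no test without shared probe sets. The mean over its probe sets was 0.54. KIF7, the ciliary regulator of hedgehog signalling, differed by 0.03 (95% interval -0.14 to 0.20) and its paralogue KIF27 by 0.05 (95% interval -0.05 to 0.16). KIF6 and KIF19, both known from cilia in mouse, differed by 0.03 and 0.01 at low signal. KIF12, KIF21B, KIF24, KIF25 and KIF26A were not tested. Of these KIF21B, a paralogue of KIF21A, averaged 2.59 ± 0.03 in senescent and 3.16 ± 0.50 in proliferating cells (SD, n = 5 each) without overlap, and the other four had means between 1.84 and 2.67 in both states.

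Of the 85 kinesin probe sets 57 were tested, of which 20 fell, 20 rose and 17 did not pass, where 53% of all probe sets tested were called. In the mitotic class 16 of 17 tested probe sets fell, the exception being a KIF20B probe set near background. In the transport class 17 of 28 rose and none fell. No kinesin gene had probe sets called in opposite directions, but sizes differed, as in KIF22, KIF23 and KIF1C. In KIF23 the second probe set fell by 0.73, at low signal in both states.

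**Figure D5:**
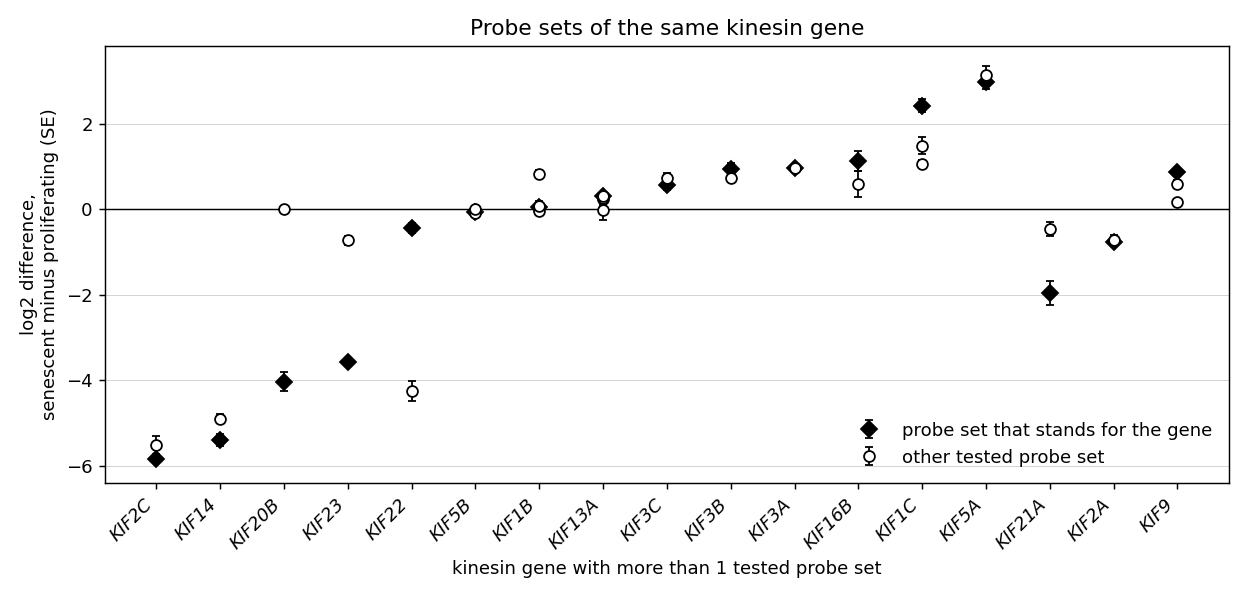
Log2 differences, senescent minus proliferating, of the tested probe sets of kinesin genes that have several, with SE from the limma fit over all probe sets. Filled diamonds are the probe sets that stand for the gene and open circles the others, with wide gaps in KIF22, at -0.44 and -4.26, and in KIF20B, whose second probe set lay near background in both states, at -4.03 and 0.01.

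A pair of kinesins whose symbols do not start with KIF fell as well. CENPE, the kinetochore kinesin-7, averaged 7.50 ± 0.47 in senescent and 11.22 ± 0.24 in proliferating cells (SD, n = 5 each), 13.2-fold lower. STARD9, a centrosomal kinesin-3, fell by 0.29 (SE 0.09, limma's adjusted p = 0.017) with overlapping groups, and its call was lost in the ACTB fit (-0.36, adjusted p = 0.054) and with housekeeping centring (-0.05, adjusted p = 0.61).

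Genes listed as spindle partners of kinesins fell in 12 of 13 tested cases, with a median of -2.65, where 30.3% of all genes tested fell. PLK1 was tested only because it passed the minimum on proliferating arrays, and the median is its difference. The size of its fall is set by the background level, with means of 2.06 in senescent and 4.71 in proliferating cells. With the stricter filter, at the 60th percentile, 11 of 12 fell. AURKB, the kinase of the chromosomal passenger complex that KIF20A relocates, fell by 5.54 (SE 0.15, low signal in senescent cells). PRC1, the microtubule bundler that KIF4A carries, fell by 4.80 (SE 0.10). TPX2, which binds KIF11 and recruits KIF15, fell by 3.93 (SE 0.12), and GTSE1, an inhibitor of KIF2C, fell by 2.84 (SE 0.14).

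Genes of light chains and cargo adaptors of transport kinesins rose in 10 and fell in 2 of 15 tested cases, with a median of 0.28. Of all genes tested, 31% rose and 30.3% fell. KLC1, the light chain that links conventional kinesin to cargo, rose by 1.11 (SE 0.06), with 12.33 ± 0.08 in senescent and 11.22 ± 0.11 in proliferating cells (SD, n = 5 each). TRAK2 and TRAK1, the mitochondrial adaptors of KIF5, rose by 1.04 (SE 0.05) and 0.72 (SE 0.10), and the scaffold gene MAPK8IP3 rose by 0.82 (SE 0.15) at low signal. Without shared probe sets TRAK1 was at 1.44. RHOT2, a mitochondrial membrane anchor, and FEZ1, an adaptor known from axons, fell by 0.22 and 0.27 (limma's adjusted p = 0.031 and 0.030), and both calls were lost in the ACTB fit (adjusted p = 0.47 and 0.20) and with housekeeping centring (0.01 and -0.03).

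Cytoplasmic dynein is the motor that moves towards microtubule minus ends, and dynactin is its activator. Their genes and those of their regulators rose in 14 and fell in 2 of 22 tested cases, with a median of 0.22. Of all genes tested, 31% rose and 30.3% fell. DYNLT3, a dynein light chain, rose by 1.74 (SE 0.05), the light intermediate chains DYNC1LI1 and DYNC1LI2 by 1.10 (SE 0.07) and 0.70 (SE 0.04), and the dynactin subunit DCTN1 by 0.92 (SE 0.06). The members that fell were NDE1, a dynein regulator required in mitosis (-2.59, SE 0.13), and the adaptor BICD1 (-0.91, SE 0.10). The mean over probe sets was -1.06 for NDE1 (adjusted p = 1.2e-06) and 0.10 for BICD1, whose probe sets disagreed (adjusted p = 0.22). It was 0.72 for DYNC1LI1 and 1.08 for DYNC1LI2.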

How the data were processed

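The authors deposited log2 values for 10 arrays of biotin-labelled total RNA, with 54675 probe sets on each. Partek and GCRMA appear in the submitters' processing notes, with no version, role or order, and other settings were not found in the sources. That the scale is log2 was inferred from the span of values. Gene symbols came from GEO's platform annotation and were brought up to date with RefSeq (GRCh38.p14), giving 41091 probe sets with 1 symbol and 1801 with several, and 62 controls were left out.

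The members, the gene lists and the kinesin classes were chosen with earlier results of these data known. Differences of senescent minus proliferating means were tested with limma 3.58.1 in R 4.3.3 (lmFit, eBayes, two-sided, Benjamini-Hochberg over 12909 genes or 32732 probe sets, threshold 0.05), a fit checked on simulated data. Every kinesin gene is named, and of each list of partners up to 4 called genes per direction with the largest difference. KIFAP3 and PLK1 are named besides these. Alternatives were another or no filter, 3 scalings, a replicate block, trend and robust eBayes, probe set means, no shared probe sets (names ending in _x_at or _s_at), the ACTB control as covariate, and leaving out arrays. Same-numbered arrays did not deviate together (correlations -0.04 to 0.10). Promoter motifs were counted with Python 3.11.15, using pandas 2.3.3 and numpy 2.4.6, and matplotlib 3.10.9 drew the figures.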

Additional observations from a re-analysis of the deposited data

Results flagged for a closer look

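Among 118 groups of 5 arrays examined for a single array far from the rest, 11 stood out, where chance gives about 1 in 20. Of the mitotic kinesins KIF23 had proliferating 2 lowest at 9.29, with the other four between 9.70 and 9.79. Of the transport kinesins KIF5A had proliferating 4 lowest at 2.36 (others 3.02 to 3.28) and KIF5C had proliferating 4 highest at 2.64 (others 2.29 to 2.31), both at low signal. Of the other kinesins KIF21A had senescent 1 highest at 3.77, KIF2A had senescent 2 lowest at 9.38 (others 9.51 to 9.55) and KIF27 had senescent 3 highest at 3.51. KIF12 had senescent 5 highest at 2.49 and KIF25 had proliferating 2 highest at 2.18, both untested. Of the dynein genes DYNC1LI1 had senescent 5 lowest at 11.09, DYNLT3 had senescent 3 highest at 12.94 and DCTN1 had senescent 3 lowest at 7.03. None of these arrays bridged the gap between the groups of KIF23, KIF5A, KIF21A, KIF2A, DYNC1LI1, DYNLT3 or DCTN1.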

How the results depend on the processing

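Of 50 named genes with values under the alternatives, 35 kept direction and side of the threshold wherever they were tested, among them 21 of 32 kinesins. Not every gene was tested under each alternative, and KIF15 was tested under 16 of 21. The mitotic count of falls was 11 to 12 and the transport count of rises 7 to 11 wherever all probe sets were used, and 8 and 8 without shared probe sets. The low signal of KIF15, KIF2C and KIF5A in one state, and of KIF14 on most senescent arrays, limits the size of their differences. Centring on housekeeping genes moved the median of all genes by 0.23 and the share of calls that were higher to 73.2% (7271 genes), against 50.6% (4004 genes). The 14 genes used for this were not a stable reference, since 7 of them were called lower and 1 higher. Under that centring 5 other kinesins rose, 0 cargo adaptors fell, KIF5B was at 0.17 and RHOT2 at 0.015. Without shared probe sets 0 other kinesins, 6 cargo adaptors and 9 dynein genes rose, with fewer genes tested. With the stricter filter 1 other kinesin fell. The count of cargo adaptors that fell was 0 with centring on tested genes, with the ACTB covariate, and without senescent 5 and proliferating 2 (an alternative added with results known), and 1 with quantile normalisation and with trend and robust eBayes. With the ACTB covariate KIF1A (0.091), KIF5B (0.023), KIF1B (-0.11), KIF19 (-0.015), KIF7 (-0.064) and KIF27 (-0.033), none of them called, changed sign. KIF19 did so with quantile normalisation (-0.019) and without senescent 5 and proliferating 2 (-0.0029), and BICD1 with probe set means (0.10). The cause of these changes was not tested. Leaving out each array in turn gave 11 to 12 mitotic falls (11 wherever a proliferating array was left out, where KIF15 no longer passed the filter), 9 transport rises, 2 to 3 falls among other kinesins, 0 to 2 falls among cargo adaptors, and values of -0.0050 to 0.093 for KIF7. Leaving out any senescent array changed the probe set read for KIF22 and KIF1C, whose values spanned -4.42 to -0.31 and 1.02 to 2.49.

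Arrays with the same number showed little shared deviation, and the labels do not say what the numbers stand for. Whether same-numbered arrays share a batch was not tested. With the replicate block 12 mitotic kinesins fell, 9 transport kinesins rose, 2 other kinesins fell and 1 rose, and 41 kinesin probe sets were called. The spindle, cargo adaptor and dynein lists had 12, 2 and 2 falls, with 10 rises among cargo adaptors and 13 among dynein genes. KIF26B (-0.58, adjusted p = 0.052) was the kinesin gene that lost its call.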
